A study of Mus musculus with 104 samples.

Results

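The libraries described here are the 5 single-neuron libraries titled experiment 49, 52, 53, 55 and 56 and the 17 titled control 56 to 72, which follow each other in the records of a series of 104 libraries. They were chosen by these title numbers alone, and all 22 were used. The series concerns fluorescent reporters that make Lewy pathology, the protein inclusions of Parkinson disease, visible in living mouse brain. Its design text describes drawing single neurons that carried inclusions of an α-Syn-6H-EGFP reporter from slices of the substantia nigra pars compacta into patch pipettes, and the labels call each cell a dopaminergic neuron. Titles alone separate experiment from control. Genotype, strain, age, virus and animal are not named in the labels used here, which also do not say whether the controls carried a reporter.

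Dopaminergic neurons of the substantia nigra make dopamine from tyrosine, load it into vesicles and take it back up from the synapse, and their loss causes the movement signs of Parkinson disease. They fire without pause and carry very long axons, which puts a heavy load on their protein and lipid synthesis. When a cell is short of amino acids, or its endoplasmic reticulum is overloaded, the transcription factor ATF4 raises genes for serine and asparagine synthesis and for amino acid import. When its membranes are low in sterol, SREBP transcription factors raise the genes of cholesterol synthesis and uptake.

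Levels are given in CPM, a gene's count scaled to equal library totals of gene counts. A pooled CPM joins all libraries of 1 group before scaling, and a ratio is experiment over control. No animal is named, so each group counted as 1 sample, no test between the groups was made, and the 95% intervals on levels and ratios cover counting error only. The spread between neurons is far wider and is shown by the values of single libraries. Where 5 values follow a gene, they belong to experiment 49, 52, 53, 55 and 56 in that order, and the controls are given as the lowest, median and highest of 17.

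Experiment libraries held 855747 to 1050341 gene counts and control libraries 693260 to 2537783. Measures of library quality moved with the group. Genes with a count numbered 9053, 8002, 6709, 6562 and 4871 in the experiment libraries, against 7424 to 11323 (median 9652) in the controls, and the gap was as wide after every library was thinned to 693260 counts (8851, 7880, 6538, 6394 and 4775 against 7198 to 11085). ERCC spike-ins, synthetic RNAs in the lysis buffer, took 0.652% to 1.67% of counts in the experiment libraries and 0.0350% to 0.633% in the controls, with no overlap. Mitochondrial-encoded genes took 2.35% to 9.0% and 1.79% to 6.62% of gene counts. The part of these differences in the results below was not tested.

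Experiment 49 and 52 lay outside the range of all other libraries in dopaminergic genes and in astrocyte markers. Summed over the 27 genes for dopaminergic identity, they reached 6708 and 8208 CPM, against 20714, 19375 and 22067 CPM in experiment 53, 55 and 56 and 17239 to 43034 CPM in the controls. The same pair carried more RNA typical of other cells. Astrocyte markers summed to 3821 and 7261 CPM in them, against 862, 171 and 859.9 CPM in the other experiment libraries and 219 to 1607 CPM (median 781) in the controls. GABAergic markers summed to 1719 and 667 CPM, against 29.5, 4.90 and 128 CPM, and 0.981 to 791.5 CPM (median 54.6) in the controls. Oligodendrocyte markers summed to 3400 and 10021 CPM, against 80.0, 37.3 and 1243 CPM, and 82.2 to 9635 CPM (median 342) in the controls. Experiment 49 also held 2815 CPM of microglial markers, within the control range of 48 to 3207 CPM. Endothelial and mural markers were at 0 in all 5 experiment libraries, and no endothelial or blood cell marker was expressed at the minimum set below. Control 60, the lowest control in dopaminergic genes, was the highest control in GABAergic markers. Results are therefore given with all 5 experiment libraries and with experiment 53, 55 and 56 alone.

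**Figure D1:**
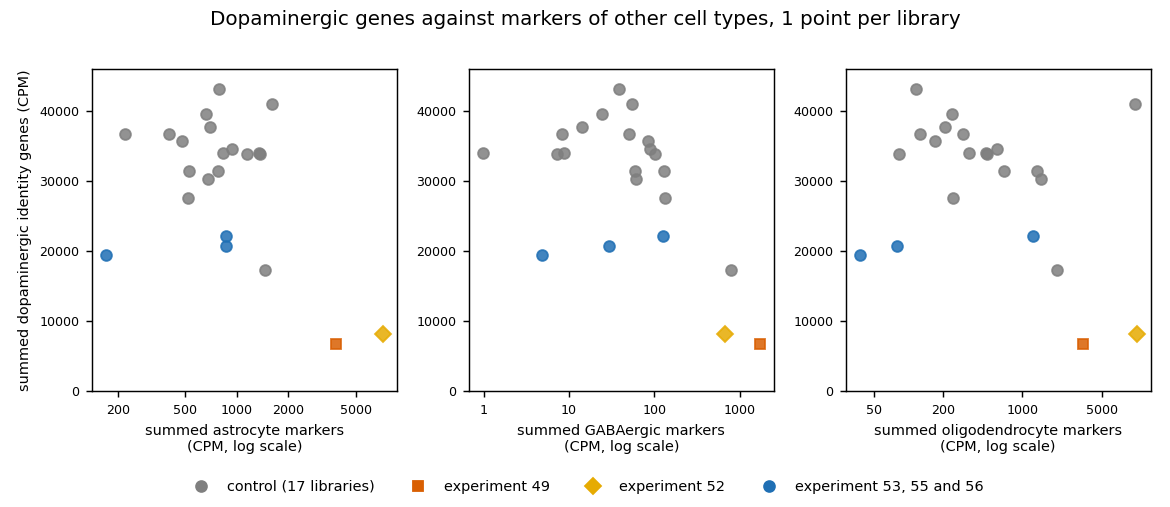
Each point is 1 library, with the summed CPM of the dopaminergic identity genes on the vertical axis and the summed CPM of astrocyte, GABAergic or oligodendrocyte markers on the horizontal axis (log scale). Experiment 49 and 52 lie low in dopaminergic genes, at 6708 and 8208 CPM, and high in astrocyte markers, at 3821 and 7261 CPM, while experiment 53, 55 and 56 lie at 19375 to 22067 CPM of dopaminergic genes.

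The transcripts that make and handle dopamine were lower in the experiment libraries. Th encodes tyrosine hydroxylase, the rate-limiting enzyme of dopamine synthesis, and lies on chromosome 7, 142892752 to 142931128, minus strand (GRCm38). Its levels were 1304, 1302, 7299, 6703 and 7915 CPM, against 4194, 10313 and 16485 CPM in the controls. Experiment 49 and 52 lay below every control, and the other experiment libraries lay within the control range but below its median. Pooled Th was 5044 CPM (4980.2 to 5108) against 10562 CPM (10519.5 to 10604), a ratio of 0.478 (0.471 to 0.484), and 0.689 without experiment 49 and 52.

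Slc18a2, the vesicular monoamine transporter (chromosome 19, 59260896 to 59296012, plus strand), was lower in each of the 5. Its levels were 392, 1068, 1219.6, 873 and 1553 CPM, against 1651, 2709 and 4713 CPM in the controls, with no overlap. The ratio was 0.349 (0.339 to 0.359), and 0.411 without experiment 49 and 52. Ddc, which encodes the decarboxylase that completes dopamine synthesis, stood at 655, 456, 2048, 1160.0 and 1071 CPM against 1142, 2909 and 4228 CPM (ratio 0.365, 0.355 to 0.375). Slc6a3, the plasma membrane dopamine transporter, stood at 285, 259, 2404, 1585 and 3867 CPM against 1703, 4586 and 7196 CPM (ratio 0.372, 0.364 to 0.381). For both genes 3 experiment libraries lay below the lowest control. Their ratios without experiment 49 and 52 were 0.473 and 0.559.

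Dlk1 and Maoa separated the groups as fully as Slc18a2. Dlk1 encodes a transmembrane Notch-family protein of midbrain dopaminergic neurons (chromosome 12, 109452823 to 109463336, plus strand). It stood at 179, 219, 266, 277 and 267 CPM against 569, 1188 and 1809.6 CPM, a ratio of 0.219 (0.206 to 0.232). The 5 values were close to each other, and the ratio was 0.243 without experiment 49 and 52. Maoa, monoamine oxidase A, which breaks down dopamine, had 0 counts in all 5 experiment libraries against 12.8, 74.2 and 344 CPM in the controls. With the experiment sum raised to a floor of 3 counts over the group, Maoa was 143-fold lower, a value set by that floor. The counting interval of its ratio reached up to 0.00861. Cplx1, a complexin that clamps synaptic vesicles before release, stood at 2776, 2934, 3192, 2569 and 2270.1 CPM. Its control values were 2509, 6401 and 8130.2 CPM, so that 16 of 17 controls exceeded all 5 experiment libraries.

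**Figure D2:**
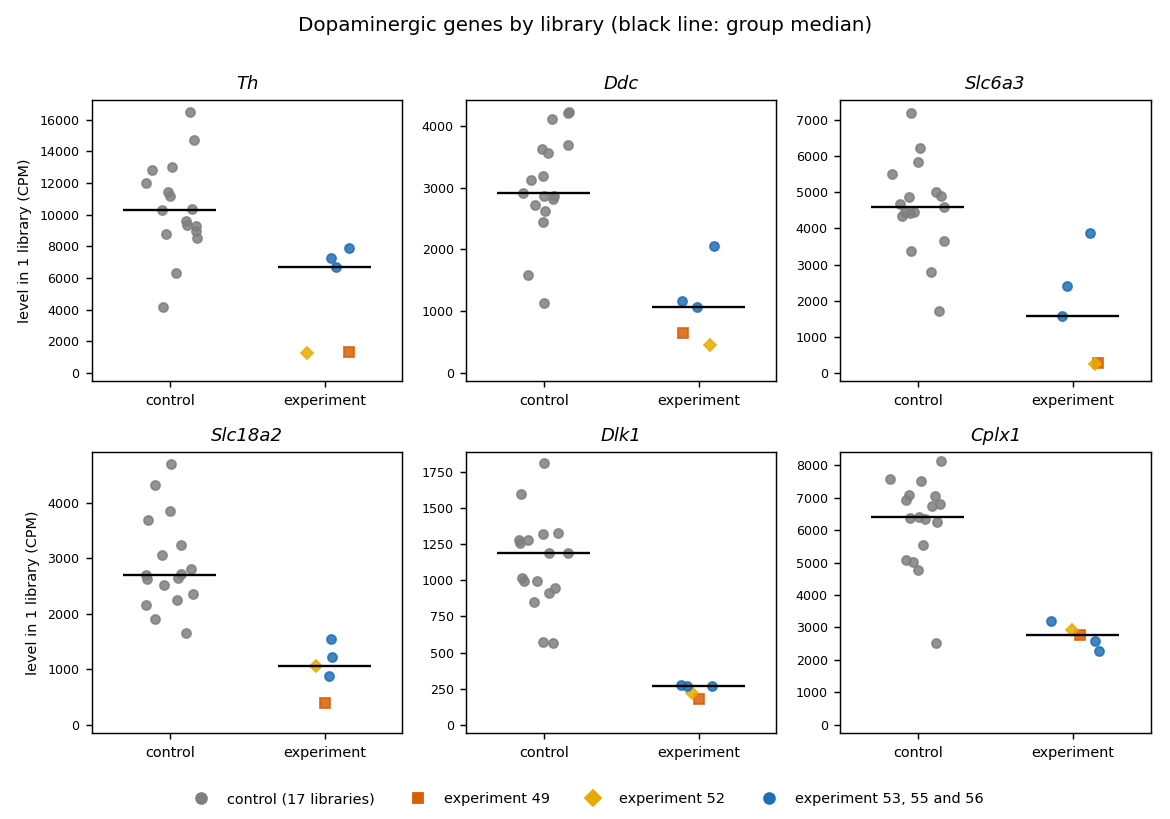
Each point is the CPM of 1 library for 6 dopaminergic genes, with controls on the left, experiment libraries on the right and a line at each group's median. Slc18a2 and Dlk1 do not overlap between the groups, and for Th, Ddc and Slc6a3 the lowest values belong to experiment 49 and 52.

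Genes counted as expressed had a CPM of at least 10 with all 22 libraries joined and a count in most libraries of at least 1 group. As 17 of the 22 libraries are controls, a gene seen mainly in experiment libraries needed a higher level to be counted. A gene was called past the fold if pooled CPM and the equally weighted mean of library CPM both differed at least 2-fold, a rule of size and not a test. Of 8527 expressed genes, 1114 (13.1%) were higher by that rule and 1772 (20.8%) were lower. Among 25 expressed genes for dopaminergic identity, 12 were lower and 1 was higher, and the median log2 ratio was -1.01 against -0.04 for all expressed genes. Among the 12, Gch1, whose product starts the synthesis of the hydroxylase cofactor tetrahydrobiopterin, stood at 0, 0, 331, 215 and 9.99 CPM against 83.0, 285 and 439 CPM. Chrna6, a nicotinic receptor subunit of these neurons, stood at 0, 84.1, 94.3, 219.7 and 637 CPM against 169.8, 466 and 1085 CPM. Both therefore ranged in the experiment libraries from none to the control median or above. The transcription factor Lmx1b was the gene past the fold upward (ratio 2.83), from counts in experiment 53 and 56 alone. Pitx3, a second regulator of dopaminergic fate, did not pass the rule, at 78.1, 0, 87.6, 481 and 217 CPM against 53.8, 130.4 and 329 CPM. Without experiment 49 and 52, 2 of the 25 were higher and 8 lower, while Th, Slc6a3, Gch1 and Chrna6 no longer passed. The median was then -0.54 against -0.20 for all expressed genes. Of all 8527 expressed genes, 1346 were higher and 2762 lower without that pair.

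Genes that mark positions within the midbrain did not move as a block. Of 9 expressed ventral tier genes, 4 were past the fold upward and 3 downward (median -0.27, and 0.41 without experiment 49 and 52). Over all expressed genes, 13.1% were higher and 20.8% lower. Aldh1a1, which makes retinoic acid and marks the ventral tier (chromosome 19, 20492715 to 20643465, plus strand), stood at 272, 417, 2162, 1503 and 1724 CPM against 0, 58.7 and 1769 CPM. Lmo3, a transcriptional cofactor of the same cells, stood at 117, 79.5, 414, 456 and 395 CPM against 0, 30.5 and 350.3 CPM. All 5 experiment libraries exceeded the control median of both genes, and experiment 53, 55 and 56 lay near or above the highest control. Aldh1a7 is a close paralog of Aldh1a1, and reads from the pair may have been split between them. Igf1, a growth factor, and Fgf1, a fibroblast growth factor, were among the genes past the fold downward, with ratios of 0.159 (0.128 to 0.196) and 0.318 (0.276 to 0.365). Of 4 expressed dorsal tier and ventral tegmental genes, Calb2 was higher and Cck and Sncg were lower. Calb2, calretinin, owed its ratio of 4.29 to 791 CPM in experiment 56 and was lower without that library (log2 ratio -0.46). Cck, a neuropeptide, stood at 35.8, 44.4, 6.66, 106 and 1.11 CPM against 5.75, 216 and 842 CPM.

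Genes of serine synthesis and amino acid transport were mostly higher. Of 14 expressed genes, 12 were past the fold upward and none downward, where 13.1% of all expressed genes were higher and 20.8% lower. The median log2 ratio of the 14 genes was 2.38, and 2.68 without experiment 49 and 52. Summed CPM of all 21 list genes was 899.5, 3457, 4964, 6364 and 5186, against 961, 1459.9 and 1658 in the controls. Experiment 52, 53, 55 and 56 each exceeded every control, and experiment 49 lay below every control. Genes of this list that ATF4 is known to raise carry a C/EBP-ATF response element in their regulatory regions, so the start sites of Asns and Slc1a4 are shown with that element. The letters TGATGNAA on either strand, capitals below, were found in 2 of the 11 list genes with a promoter in the RefSeq table (GRCm38.p6). They occur in 3.97% of all 32851 promoters of 250 bases before to 50 after a start site, and 4.51% of 27025 genes hold one. Each stretch runs from 200 bases before the start site to 20 after it.

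Asns (chr6:7693190-7693409, minus strand): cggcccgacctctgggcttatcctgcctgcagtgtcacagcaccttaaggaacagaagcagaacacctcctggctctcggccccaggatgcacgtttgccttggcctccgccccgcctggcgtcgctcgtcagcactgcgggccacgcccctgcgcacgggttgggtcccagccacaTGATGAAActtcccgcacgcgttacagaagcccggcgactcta

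Slc1a4 (chr11:20332694-20332913, minus strand): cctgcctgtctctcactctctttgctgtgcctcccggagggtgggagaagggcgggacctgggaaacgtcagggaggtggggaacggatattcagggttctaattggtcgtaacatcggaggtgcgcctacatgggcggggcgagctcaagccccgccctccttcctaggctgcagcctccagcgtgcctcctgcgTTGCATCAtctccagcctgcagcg

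The match begins at -23 of the start site in Asns and at -4 in Slc1a4. It is a description of these letters, and no match elsewhere says only that they are not in that window.

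Phgdh encodes phosphoglycerate dehydrogenase, the first enzyme of serine synthesis (chromosome 3, 98313170 to 98339990, minus strand). It stood at 77.0, 154, 383, 309.9 and 14.4 CPM against 0, 0 and 46.4 CPM, and 4 of 5 experiment libraries exceeded every control. Pooled Phgdh was 197 CPM (184 to 209.7) against 6.89 CPM (5.85 to 8.06), a ratio of 28.6 (24.1 to 34.1). Psat1, the transaminase of the next step (chromosome 19, 15904678 to 15947337, minus strand), stood at 0, 467, 344, 700.1 and 188 CPM against 0, 2.90 and 87.5 CPM (ratio 14.2, 12.9 to 15.7). Psph, the phosphatase that releases serine, stood at 84.6, 0, 122, 54.9 and 49.9 CPM against 0, 0 and 28.4 CPM (ratio 7.35, 6.13 to 8.83). Each of the 3 enzymes had 4 experiment libraries above the highest control, but the library without counts was experiment 49 for Psat1 and experiment 52 for Psph.

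Mitochondrial enzymes that take carbon from serine into the folate pool were also higher. Shmt2, mitochondrial serine hydroxymethyltransferase, stood at 0, 100.5, 250.4, 373 and 134 CPM against 0, 14.4 and 98.4 CPM (ratio 6.72, 6.05 to 7.48). Mthfd2, a mitochondrial methylenetetrahydrofolate dehydrogenase, stood at 14.1, 5.84, 379, 838 and 0 CPM against 0, 10.2 and 169.9 CPM. Its ratio of 10.4 (9.42 to 11.5) therefore rests on experiment 53 and 55, and the Mthfd2 log2 ratio of 3.38 became 2.12 without experiment 55. Aldh18a1, which begins proline synthesis from glutamate, had a ratio of 4.29 (3.87 to 4.75).

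Asns, asparagine synthetase, was the most abundant gene of the list by pooled CPM, a scale not corrected for gene length. It stood at 45.6, 888, 1229, 1286 and 1708 CPM against 124, 342 and 576 CPM. Experiment 52, 53, 55 and 56 exceeded every control and experiment 49 lay below every control. The ratio was 2.82 (2.73 to 2.93), and 3.78 without experiment 49 and 52. Both subunits of the large neutral amino acid carrier exceeded every control in the same 4 libraries and were at 0 in experiment 49. Slc3a2, the heavy chain, stood at 0, 736, 670.3, 618 and 1087 CPM against 45.5, 169 and 389 CPM (ratio 3.60, 3.43 to 3.78). Slc7a5, the light chain, stood at 0, 120.4, 299.9, 250.1 and 273 CPM against 0, 15.3 and 101 CPM (ratio 7.59, 6.83 to 8.44). Slc7a3, a carrier of cationic amino acids, stood at 93.3, 160.1, 243, 827 and 597 CPM against 0, 64.1 and 247 CPM (ratio 5.16, 4.83 to 5.51). All 5 experiment libraries exceeded the control median of Slc7a3. Slc1a4, a carrier of small neutral amino acids, and Slc38a1, a glutamine carrier, did not pass the fold, with ratios of 1.83 (1.68 to 1.99) and 0.728 (0.687 to 0.772).

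**Figure D3:**
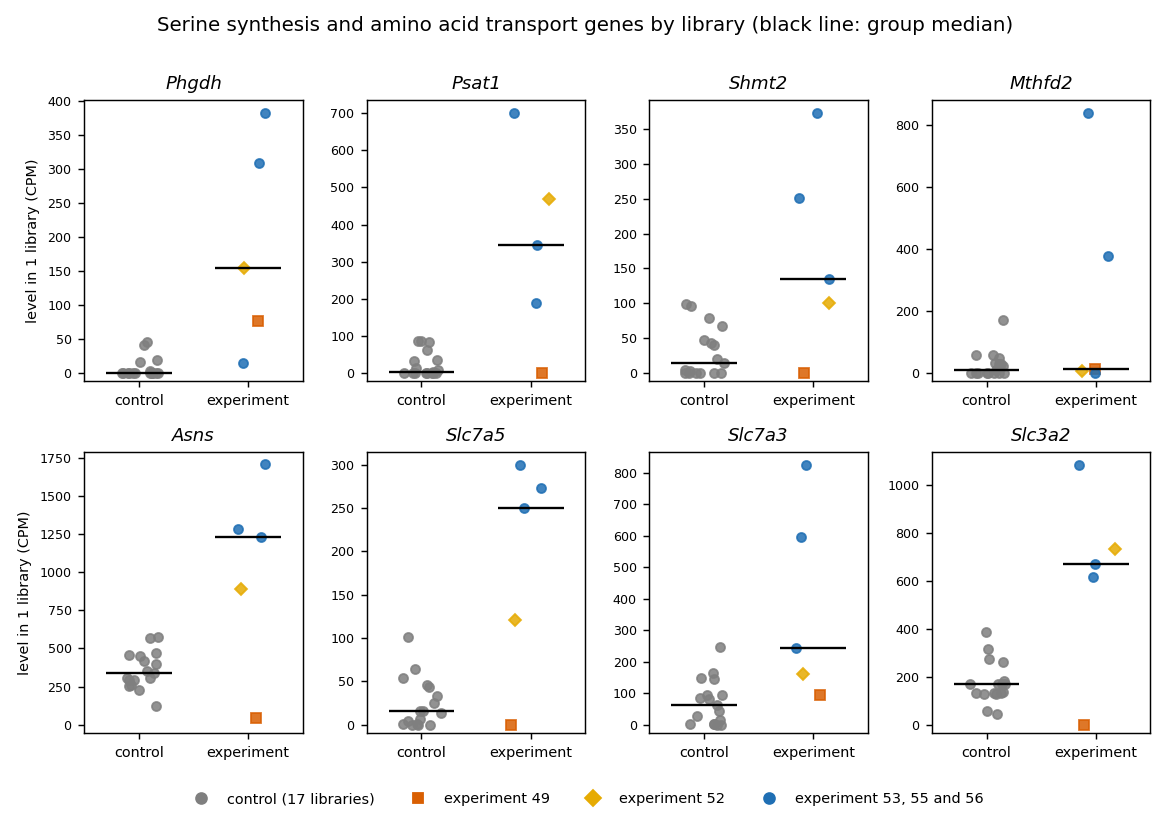
Each point is the CPM of 1 library for 8 genes of serine synthesis and amino acid transport, with a line at each group's median. Experiment 52, 53, 55 and 56 lie above all 17 controls for Psat1, Shmt2, Asns, Slc7a5 and Slc3a2, and experiment 49 lies at 0 for Psat1, Shmt2, Slc7a5 and Slc3a2.

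The wider ATF4 and CHOP targets did not follow as a group. Of 13 expressed genes, 3 were past the fold upward and 2 downward (median 0.49), where 13.1% of all expressed genes were higher and 20.8% lower. Ddit3, which encodes CHOP, stood at 11.9, 305, 255, 364 and 1.11 CPM against 0, 71.7 and 151 CPM, so that 3 experiment libraries exceeded every control and 2 lay near 0 (ratio 2.47, 2.28 to 2.68). Nars, asparaginyl-tRNA synthetase, stood at 525, 497, 1002, 1403 and 610.2 CPM against 211, 385 and 564 CPM (ratio 2.26, 2.18 to 2.35). Atf4 itself did not pass the fold, at 116, 487, 278, 53.9 and 172 CPM against 5.77, 109 and 239 CPM (ratio 1.85, 1.72 to 1.99). Chac1, a glutathione-degrading enzyme and a direct target of ATF4 and CHOP, lay in the other direction. One read of Chac1 was counted in the 5 experiment libraries together, 0.211 CPM (0.00533 to 1.17), against 42.8 CPM (40.2 to 45.6) pooled over the controls, whose values were 0, 41.4 and 116 CPM. The Chac1 start site also holds the response element, at -193, and is shown because the gene differs from Asns in direction.

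Chac1 (chr2:119351042-119351261, plus strand): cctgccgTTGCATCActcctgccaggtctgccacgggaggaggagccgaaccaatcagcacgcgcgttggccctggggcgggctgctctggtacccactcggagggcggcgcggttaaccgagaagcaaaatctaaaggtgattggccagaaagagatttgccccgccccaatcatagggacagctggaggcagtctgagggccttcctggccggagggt

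In all, 4 of 10 genes of this list with a promoter in the table held the letters. Of 26 expressed endoplasmic reticulum chaperones and unfolded protein response genes, 5 were lower and 4 higher, around a median of -0.07. Over all expressed genes, 20.8% were lower and 13.1% higher. Edem1, which targets misfolded glycoproteins for degradation, stood at 5.43, 15.2, 128, 50.01 and 28.8 CPM against 0, 0 and 29.1 CPM (ratio 9.60, 7.63 to 12.1). Experiment 53 was its highest library, and the Edem1 log2 ratio of 3.26 became 2.35 without it. Pdia6, a disulphide isomerase, was lower at 61.8, 33.9, 1.90, 37.3 and 0 CPM against 0, 136 and 443 CPM. Of 23 aminoacyl-tRNA synthetase genes, 2 were higher and 1 lower, and without experiment 49 and 52 the counts were 7 and 5. Without that pair, 1346 of all 8527 expressed genes were higher and 2762 lower.

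Cholesterol synthesis genes were mostly lower. Of 26 expressed genes of synthesis and uptake, 15 were past the fold downward and 3 upward, and their median log2 ratio was -1.12. Of all expressed genes, 20.8% were lower and 13.1% higher. Without experiment 49 and 52, 17 list genes were lower, 2 were higher and the median was -1.61. Of all 8527 expressed genes, 2762 were then lower and 1346 higher. Summed CPM of all 28 list genes was 3483, 4108, 2811, 1575 and 671 against 2073, 3307 and 4949.96 in the controls. The sums of experiment 49 and 52 include 2265 and 2186 CPM of Apoe, a lipid carrier made mainly by astrocytes, which stood at 838, 0 and 132 CPM in experiment 53, 55 and 56 and at 2.48, 97.1 and 878 CPM in the controls.

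Hmgcs1, which makes the precursor of mevalonate, stood at 98.7, 0, 170.4, 61.8 and 35.5 CPM against 163, 384 and 698 CPM. All but experiment 53 lay below the lowest control, and the ratio was 0.176 (0.158 to 0.196). Insig1, the sterol-regulated anchor of SREBP in the endoplasmic reticulum, stood at 16.3, 76.0, 6.66, 195 and 25.5 CPM against 87.3, 261 and 459 CPM (ratio 0.240, 0.214 to 0.270). Again 4 of 5 lay below the lowest control. Cyp51, lanosterol demethylase (chromosome 5, 4081145 to 4104746, minus strand), had counts in experiment 49 alone, at 23.9 CPM, against 0, 129.7 and 322 CPM in the controls (ratio 0.0296, 0.0185 to 0.0449). Mvd, mevalonate diphosphate decarboxylase, had counts in experiment 52 alone, at 19.9 CPM, against 0, 65.1 and 459 CPM.

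Msmo1, a sterol methyl oxidase, stood at 128, 102, 16.2, 167 and 196 CPM against 122, 298 and 744 CPM. Fdft1, squalene synthase, stood at 165, 228, 199, 375 and 13.3 CPM against 117, 417 and 813 CPM. Each of the 5 lay below the control median in both genes. Sc5d, sterol desaturase, did not differ by the fold, with a ratio of 1.04 (0.963 to 1.13). Srebf1, which encodes an SREBP, had counts in experiment 52 and 53 alone, at 95.8 and 214 CPM. Of 20 list genes with a promoter in the table, 1, Hmgcs1, held the core letters of a sterol regulatory element, TCACNCCAC on either strand, at -137. They occur in 1.24% of all promoters, and the Hmgcs1 window is shown because that gene lay below the control median in each of the 5.

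Hmgcs1 (chr13:119690151-119690370, plus strand): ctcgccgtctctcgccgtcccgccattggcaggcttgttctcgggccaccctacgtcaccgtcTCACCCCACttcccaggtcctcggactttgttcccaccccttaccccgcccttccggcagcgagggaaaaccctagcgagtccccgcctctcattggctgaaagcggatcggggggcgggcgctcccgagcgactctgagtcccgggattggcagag

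**Figure D4:**
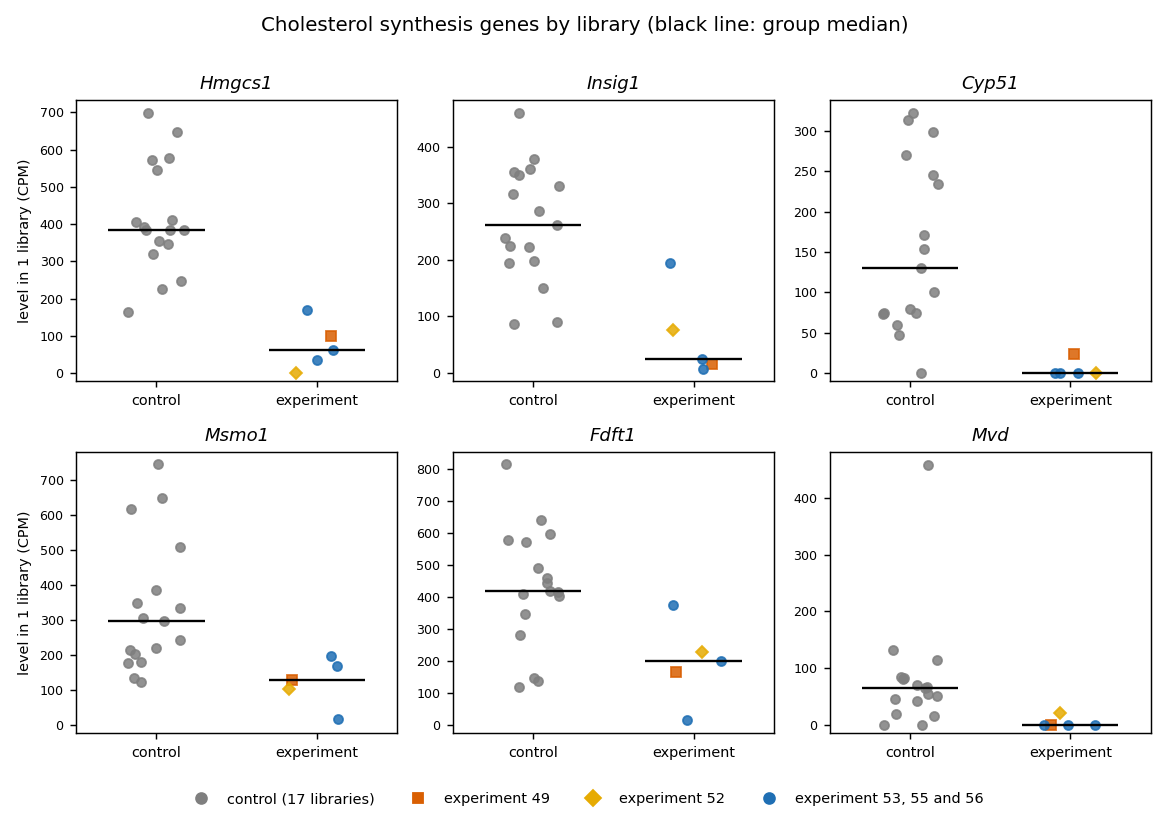
Each point is the CPM of 1 library for 6 genes of cholesterol synthesis, with a line at each group's median. For Hmgcs1 and Insig1, 4 of the 5 experiment libraries lie below the lowest control, and for Cyp51 experiment 49 is the sole experiment library above 0.

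Of 38 expressed pacemaker and voltage-gated channel genes, 13 were lower and 4 higher (median -0.49), where 20.8% of all expressed genes were lower and 13.1% higher. Without experiment 49 and 52 the counts were 16 and 3, where 2762 of all 8527 expressed genes were lower and 1346 higher. Cacna1g, a T-type calcium channel, stood at 1.09, 0, 0, 3.92 and 0 CPM against 0, 37.8 and 204 CPM. Hcn4, a pacemaker channel, had 0 counts in all 5 against 0, 9.24 and 84.3 CPM. It was 21.3-fold lower by the floor of 3 counts over the group, and the counting interval of its ratio reached up to 0.0580. Hcn3 of the same family stood at 0, 0, 48.6, 0 and 16.6 CPM against 8.66, 52.5 and 153 CPM. Of 30 neurotransmitter receptor genes, 6 were lower and 1 higher, a lower share near that of all expressed genes. Grin2b and Grin2a, subunits of the NMDA receptor, lay in different directions. Grin2b stood at 10.9, 4.67, 17.1, 43.1 and 1.11 CPM against 17.9, 45.4 and 135 CPM, with 4 of 5 below every control, while Grin2a stood at 138, 18.7, 259.9, 154 and 0 CPM against 0, 35.5 and 197 CPM. Of 40 synaptic vesicle genes, 3 were higher and 3 lower. Bsn, a scaffold of the active zone, stood at 10.9, 4.67, 81.9, 0 and 0 CPM against 23.1, 103 and 289 CPM. Of 18 granin and dense-core vesicle genes, none was higher and 2, Cadps2 and Pcsk1, were lower. Of 38 genes of axonal cytoskeleton and transport, 3 were lower and 1 higher, among them Tubb4a, a neuronal and glial tubulin, at 522, 365, 1234, 887 and 435 CPM against 797, 1530.5 and 3284 CPM.

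Of 77 expressed ribosomal protein genes, 73 had a ratio above 1 by both weightings, as had 3984 of all 8527 expressed genes. Only 3 of the 77 passed the fold, where 13.1% of all expressed genes were higher. The median log2 ratio of the 77 genes was 0.54, and 0.50 without experiment 49 and 52. Relative to all expressed genes it was 1.32 on the log2(CPM + 1) scale and 1.14 when each gene lost its highest library in both groups. These 2 settings subtract a median of all expressed genes of -0.82 and -0.77. They raised other lists too, such as the nuclear-encoded respiratory chain, so the larger values are not particular to ribosomal proteins. Summed CPM of all 79 list genes was 14599, 14282, 14949, 12046 and 16544 against 7254, 10056 and 13159 in the controls, and 4 of 5 experiment libraries exceeded every control. The gene with the largest ratio of the 3, Rps19 of the small subunit, stood at 211, 259, 106, 236 and 706 CPM against 48, 119.8 and 269 CPM. Reads of ribosomal protein genes can be shared with their processed pseudogenes. Of 76 nuclear-encoded respiratory chain genes, 1 was higher and 1 lower (median 0.04). Ndufb9, a complex I subunit, stood at 609, 751, 584, 584 and 337 CPM against 167, 249.7 and 412 CPM, and Ndufs1, another, at 65.1, 53.8, 32.4, 126 and 0 CPM against 47.5, 192 and 448 CPM. None of 10 mitochondrial-encoded genes passed the fold (median 0.30).

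Among genes of protein clearance, the counts were 0 higher and 2 lower of 37 proteasome genes, 1 higher and 5 lower of 51 autophagy and lysosome genes, and 1 of each of 32 cytosolic chaperones. They became 2 and 2, 3 and 10, and 4 and 4 without experiment 49 and 52. Of all 8527 expressed genes, 1114 were higher and 1772 lower with all 5, and 1346 and 2762 without that pair. Bag5, a co-chaperone of Hsp70, was the chaperone past the fold upward, at 31.5, 172, 259.9, 339 and 254 CPM against 0, 87.5 and 135 CPM. In 4 of 5 it exceeded every control, and experiment 49 lay below the control median. Hspa4l, an Hsp110-type exchange factor, was lower at 182, 5.84, 153, 203 and 91.0 CPM against 119.7, 338 and 617 CPM. Of the 24 expressed Parkinson disease genes examined, none was higher and 4 were lower, a share below the 20.8% of all expressed genes. Without experiment 49 and 52 none was higher and 9 were lower, where 2762 of all 8527 expressed genes were lower. The median of the 24 genes was -0.51 with all 5, but 0.026 on the log2(CPM + 1) scale relative to all expressed genes. Atp13a2, a lysosomal polyamine exporter, stood at 152, 120.4, 0, 252 and 0 CPM against 65.4, 210.1 and 531 CPM. The other 3 were Park2, a ubiquitin ligase of mitophagy, Gak, a clathrin-uncoating kinase, and Gch1. Of 31 antioxidant, iron and metallothionein genes, 5 were higher and 4 lower. Gstm1, a glutathione transferase with close paralogs, stood at 208, 409, 77.1, 0 and 216 CPM against 0, 15.3 and 58.7 CPM, and Ftl1, ferritin light chain, at 1809, 1033, 1224, 662 and 711 CPM against 226, 447 and 1081 CPM. Cat, catalase, had counts in experiment 52 alone.

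Immediate early genes, which rise within minutes of activity or tissue handling, were carried by 1 library. Of 20 expressed genes, 4 were higher and 5 lower. Without experiment 49 and 52 none was higher and 10 were lower, where 2762 of all 8527 expressed genes were lower. Fos stood at 517, 10251, 194, 778 and 440.5 CPM against 73.9, 535 and 2880.2 CPM. Its ratio of 3.25 (3.17 to 3.34) became 0.681 without experiment 49 and 52. Arc and Egr4 had 0 counts in all 5 experiment libraries, with control medians of 3.19 and 0.827 CPM. Of 16 p53 and apoptosis genes 6 were lower and 2 higher, where 20.8% of all expressed genes were lower and 13.1% higher. Of 14 axon injury genes 2 were higher and 1 lower, of 19 glycolysis genes 2 and 1, and of 5 interferon and class I genes none and 1.

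Markers of astrocytes, GABAergic neurons and oligodendrocytes were high in experiment 49 and 52, and those of microglia in experiment 49 alone of the 5. Of 10 expressed astrocyte markers, 7 were past the fold upward and 1 downward (median 1.86), where 13.1% of all expressed genes were higher and 20.8% lower. Without experiment 49 and 52 the marker counts were 3 and 4 and the median was -0.33. Of all 8527 expressed genes, 1346 were then higher and 2762 lower. Slc1a3, the astrocytic glutamate transporter, stood at 219, 507, 147, 0 and 0 CPM against 0, 3.39 and 105 CPM. All 3 expressed GABAergic markers were higher, and without the pair none was. Gad2, a glutamate decarboxylase, stood at 782, 210.3, 0, 0 and 14.4 CPM against 0, 5.41 and 215 CPM. Of 8 microglial markers none was higher and 1 lower, and C1qb, a complement component, stood at 846, 0, 0, 0 and 0 CPM against 0, 67.1 and 599 CPM. Of 5 oligodendrocyte markers, 2 were higher and 2 lower, and Mbp, myelin basic protein, stood at 2437, 7306, 0, 36.3 and 841 CPM against 63, 185 and 2012 CPM. The glutamatergic and cholinergic markers gave 1 higher and 1 lower gene of 2 expressed, and the oligodendrocyte precursor markers 0 and 1 of 2. The part of these markers in the lower dopaminergic genes was not tested. Slc18a2 and Dlk1 lay below every control in each of the 5 libraries.

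**Figure D5:**
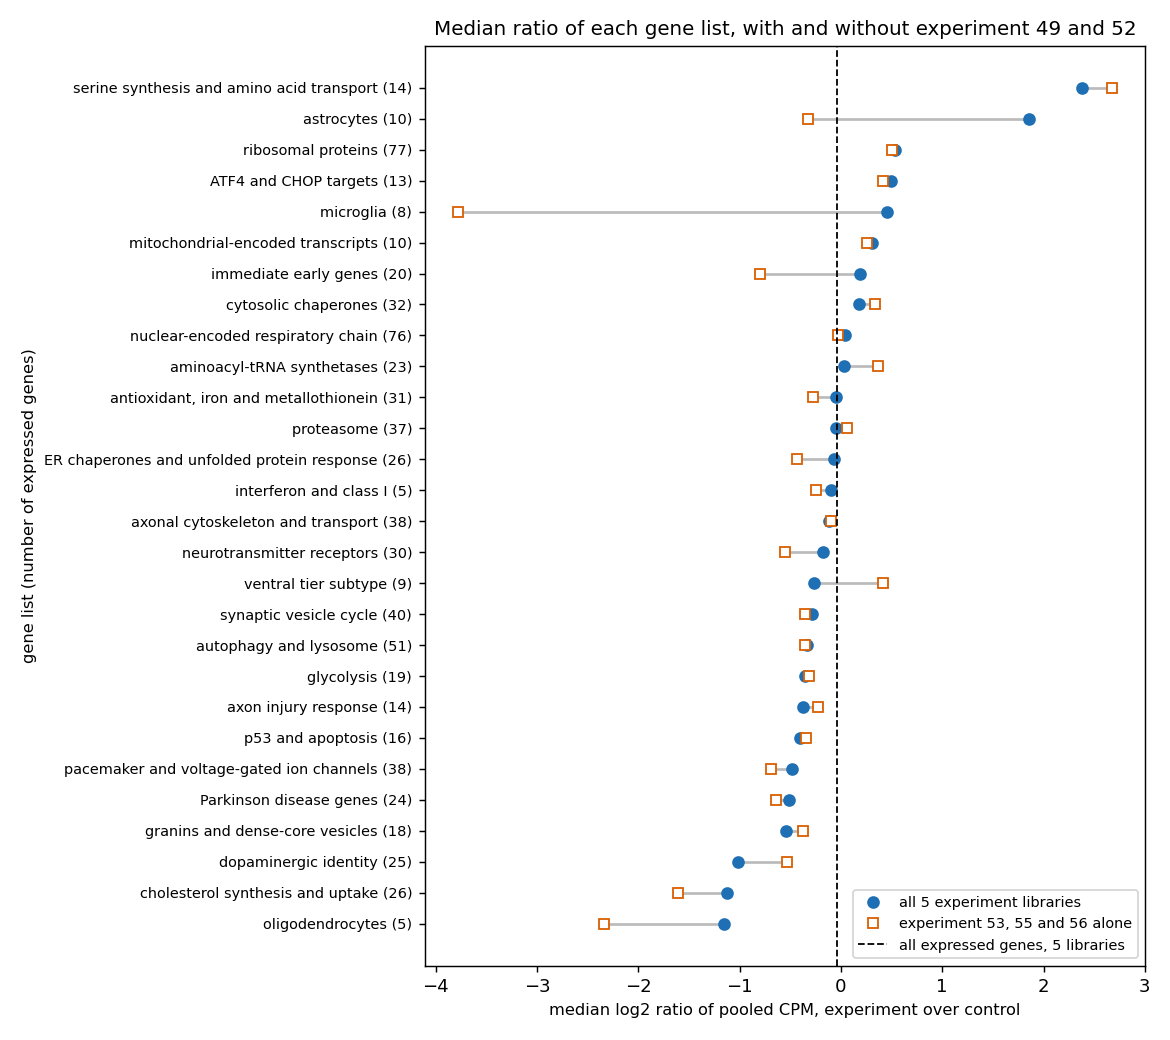
Each row is a gene list with at least 5 expressed genes, and the horizontal axis is the median log2 ratio of pooled CPM, experiment over control. Filled circles use all 5 experiment libraries and open squares experiment 53, 55 and 56 alone. Serine synthesis and amino acid transport lies highest by both (2.38 and 2.68), and astrocyte markers move from 1.86 to -0.33.

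A narrower set of genes was past the fold and lay beyond the control quartiles in at least 4 of 5 experiment libraries, 215 higher (2.52%) and 893 lower (10.5%). Of the 15 highest, Phgdh, Psat1, Slc7a5 and Psph belong to serine synthesis and amino acid transport, and Gstm1 and Edem1 to other lists described above. Others act on RNA or chromatin. Ss18, a subunit of the BAF chromatin remodeller, stood at 26, 108, 72.4, 52 and 0 CPM against 0, 0 and 17.7 CPM (ratio 14.2, 10.98 to 18.4). Exosc8, a subunit of the RNA exosome, Rpp25, a subunit of ribonuclease P, and Utp18, a factor of small ribosomal subunit assembly, had ratios of 10.4, 9.77 and 6.51. The Rpp25 log2 ratio of 3.29 became 1.98 without experiment 49. Hps4, which acts in the making of lysosome-related organelles, stood at 80.3, 94.7, 265, 316 and 266 CPM against 0, 17 and 96.2 CPM, and exceeded the control median in each library. The rest were Sbf2, Spry2, Trim11 and Fubp3. Spry2, an inhibitor of receptor tyrosine kinase signalling, held 399.7 CPM in experiment 52, and its ratio fell from 6.97 to 1.75 without experiment 49 and 52.

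The 15 lowest were at or near 0 in every experiment library. Bckdhb, a subunit of the branched-chain keto acid dehydrogenase, Adpgk, an ADP-dependent glucokinase, and Erp44, which retains thiol proteins in the endoplasmic reticulum, had 0 counts in all 5. They were 121-fold, 91.7-fold and 90.7-fold lower by the floor of 3 counts over the group, with control medians of 88.0, 48.1 and 40.6 CPM. The counting intervals of their ratios reached up to 0.0102, 0.0134 and 0.0136. Prkaa2, a catalytic subunit of AMP-activated kinase, had counts in experiment 49 alone, at 2.17 CPM, against 12.4, 75.4 and 151 CPM. Grin2c, an NMDA receptor subunit, had counts in experiment 52 alone, at 1.17 CPM, against 0, 19.96 and 300.2 CPM. The others were Maoa, Dpp3, Spin2c, Ddx39, Myadm, Ttc12, Hunk, C1galt1c1, Zw10 and Lhfpl5.

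Groups did not overlap for 3 genes higher (0.0352% of those expressed) and 21 lower (0.246%). The 3 higher act on nucleic acids or in the nucleolus. Luc7l3, a splicing factor, stood at 164, 206, 268, 174 and 189.7 CPM against 0, 81.5 and 131 CPM. Nol7, a nucleolar protein, stood at 226, 137, 149, 264 and 192 CPM against 0, 60.6 and 107 CPM. Fubp3, a single-strand nucleic acid binding protein (chromosome 2, 31572651 to 31617526, plus strand), stood at 33.6, 108, 58.1, 131 and 118 CPM against 0, 13.7 and 28.6 CPM. Their ratios were 2.57 (2.37 to 2.78), 3.80 (3.48 to 4.15) and 6.22 (5.37 to 7.21).

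Several of the 21 lower genes had counts in every library. Ache, acetylcholinesterase, which dopaminergic neurons also make, stood at 70.5, 178, 138, 223 and 242 CPM against 339, 580.3 and 1338 CPM (ratio 0.276, 0.256 to 0.296). Arl6ip1, which shapes the tubular endoplasmic reticulum, stood at 617, 309.7, 356, 358 and 498 CPM against 649.6, 974.9 and 1311 CPM. Ndfip1, an adaptor of Nedd4 ubiquitin ligases, stood at 582, 439, 841, 1573 and 1344 CPM against 1614, 1893 and 2594 CPM. Serinc1, a membrane protein named for serine incorporation into lipids, was just apart at 594 to 822 CPM against 824 to 1659 CPM, and did not pass the fold (ratio 0.549, 0.530 to 0.570). Lgmn, a lysosomal protease, was also just apart, with 255.0 CPM in experiment 49 against a lowest control of 255.2 CPM. Cpt1c, a neuronal carnitine palmitoyltransferase of the endoplasmic reticulum, stood at 13, 5.84, 4.76, 0 and 0 CPM against 38.7, 157 and 476 CPM. With Slc18a2, Dlk1 and Maoa, the others were Ube2f, Dsel, Iars2, Egfl7, Spin2c, Prkaa2, Mn1, Gbas, Pcyox1, Myadm, Smim18 and Adpgk.

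The share of genes past the fold fell with their level in the controls. This fall follows in part from the rules, since the control level is also the divisor of the ratio. A gene below 10 CPM in the controls reached the joined minimum of 10 CPM only through a higher experiment level. Below 30 CPM 24.5% of genes were higher and 27.7% lower, from 30 to 100 CPM 9.72% and 20.8%, from 100 to 300 CPM 3.15% and 11.5%, and at 300 CPM or more 1.72% and 8.97%. No count in any of the 5 experiment libraries was found for 177 genes of the lowest class and 53 of the next, and for 0 above. Lower genes therefore outnumbered higher ones in each class. Of the genes past the fold, 38.6% were higher. That share was 14.4% on the log2(CPM + 1) scale and 12.04% when each gene lost its highest library in both groups. After TMM scaling it was 28.6%. In these settings the median of all expressed genes shifted to -0.82, -0.77 and -0.24. Relative to that median, the shares were 47.2%, 38.8% and 41.2%. Without experiment 49 and 52, 1346 genes were higher and 2762 lower, and these held 75.04% of the higher and 90.5% of the lower genes found with all 5.

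Experiment libraries correlated with each other less than controls did. Over pairs of libraries, the correlation of log2(CPM + 1) across genes had a median of 0.384 (0.349 to 0.411) for 10 experiment pairs and 0.524 (0.401 to 0.631) for 136 control pairs. Genes are not independent replicates, and these values describe the libraries. Experiment libraries also had fewer genes with a count (median 6709 against 9652), and the part of this in the lower correlation was not tested. None of the 231 pairs had identical counts.

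The neighbouring libraries experiment 36 to 48 and control 38 to 55, which share no library with those above, gave a median log2 ratio of 1.93 for serine synthesis and amino acid transport, against 2.38 here. Experiment 1 to 35 against control 1 to 37 gave 0.41. Phgdh had ratios of 6.13 and 1.88 there, against 28.6 here. Cholesterol synthesis and uptake gave -0.23 and -0.52, against -1.12 here, and dopaminergic identity -0.52 and -0.21, against -1.01. Chac1 had ratios above 1 in both, 4.68 and 1.63. Slc18a2 stood at 0.714 and 1.13 and Dlk1 at 0.557 and 0.585, against 0.349 and 0.219. These differences were not tested. The gene lists were chosen with earlier results of these data known, so the neighbouring libraries are no independent check of them.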

How the data were processed

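Per the labels' protocols, the content of each pipette was amplified by Smart-seq2 and made into a HyperPlus library. The authors deposited whole read counts per gene symbol, and the submitters' processing notes name STAR 2.5.3a, featureCounts 1.5.3 and mm10. The gene annotation, strandedness and multimapping rule were not given in the sources used here. Of the table's rows, 45808 were genes and 92 were ERCC spike-ins, which stayed out of library totals.

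CPM, pooled ratios with exact Poisson or binomial split intervals, and counts past 2-fold were computed from the deposited counts with Python 3.11.15 (pandas 2.3.3, scipy 1.17.1). A group sum below 3 was raised to 3 for ratios. Expressed genes had a CPM of at least 10 with all 22 libraries joined. They also had a count in at least 3 of 5 experiment or 9 of 17 control libraries. edgeR 4.0.16 (TMM) and DESeq2 1.42.0 (size factors) gave alternative scalings alone, since unnamed animals leave no test. Groups came from sample titles. The members and the 26 gene and 8 marker lists were chosen with earlier results of these data known. Named were the 15 highest and 15 lowest genes past the fold with 4 of 5 experiment libraries beyond the control quartile, Th, Slc6a3, Slc18a2 and Ddc, up to 4 genes per list by the smaller log2 ratio, and list genes without overlap. Other genes named in the text, from the lists or without overlap, were chosen after their values were seen. Some items are not reported here. Gene positions come from GENCODE on GRCm38 and promoters from RefSeq. Counts were also simulated with Poisson error alone, from 1 profile shared by all libraries, with chosen genes changed 4-fold. The rule recovered all 100 raised and all 100 lowered genes. Such counts hold no spread between neurons, so they cannot show how the rule performs on these libraries. Counting intervals leave out the spread between neurons, and no molecular identifiers were used.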

Additional observations from a re-analysis of the deposited data

Results flagged for a closer look

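Summed lists and the highest and lowest genes were searched, 42 sets of 5 experiment values in all. The search was for a library whose gap to the others exceeds what Dixon's test allows. Flagged were 5, a count that cannot be set against a chance rate of 1 in 20. Genes at 0 in all 5 libraries, such as Bckdhb, could not be flagged. Lowest genes with counts in 1 experiment library alone were left out of the 5, although their single value stands apart from the others. Examples are Prkaa2 (2.17 CPM in experiment 49) and Dpp3 (0.981 CPM in experiment 55). Immediate early genes summed to 19480 CPM in experiment 52, against 1264 to 2855 CPM in the other experiment libraries. Microglial markers summed to 2815 CPM in experiment 49, against 0 to 365 CPM in the others. Glutamatergic and cholinergic markers summed to 151.9 CPM in the same library, against 0 to 35.1 CPM. Rpp25 stood at 689 CPM in experiment 49, and its ratio of 9.77 became 2.99 without experiment 49 and 52. Spry2 stood at 399.7 CPM in experiment 52. All 5 flagged values belong to the pair of libraries lowest in Th.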

How the results depend on the processing

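No paired analysis was possible because experiment and control share 1 title number, 56, which the labels do not tie to an animal, and no test was made. Leaving out experiment 49 and 52 was chosen after seeing the data. The 1114 higher genes became 1887 on the log2(CPM + 1) scale and 1726 when each gene lost its highest library in both groups (both relative to the median of all expressed genes), 2387 at a minimum of 1 CPM, 317 at 50 CPM, and 1143 to 1273 with each experiment library left out. The 1772 lower genes became 2728 without the highest library, 4478 at 1 CPM, 489 at 50 CPM, 2762 without experiment 49 and 52, and 1851 to 2210 with each left out. Genes without overlap became 13 higher and 32 lower without experiment 52 and control 65, the richest in glial markers, 60 and 105 without experiment 49 and 52, and 4 to 18 and 28 to 49 with each experiment library left out, since fewer libraries have to stay apart. The largest of these counts, 18 and 49, came without experiment 49. Leaving out any 1 experiment library moved both counts by over 1.5 times, with 2 exceptions. These were the higher count without experiment 53 (4) and the lower count without experiment 56 (28).

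Without experiment 49 and 52, medians became -2.53 for GABAergic, -0.33 for astrocyte, -3.99 for glutamatergic and cholinergic, -3.79 for microglial and -3.27 for oligodendrocyte precursor markers. Leaving out single experiment libraries gave microglial medians of -4.15 (without experiment 49) to 0.81 (without experiment 55). Relative to all expressed genes, the log2 scale and the setting without the highest library moved the medians of ribosomal proteins to 1.32 and 1.14, of the nuclear-encoded respiratory chain to 0.77 and 0.61, of glycolysis to 0.42 and 0.26, of synaptic vesicles to 0.26 and 0.16, of cytoskeleton to 0.55 and 0.45, of the proteasome to 0.54 and 0.55, and of antioxidant genes to 0.51 and 0.34. The log2 scale alone moved mitochondrial-encoded transcripts to 1.16, axon injury to 0.21, lysosome to 0.13, chaperones to 0.72 and Parkinson disease genes to 0.026, and the other setting alone moved granins to 0.029 and microglia to -3.16. Oligodendrocyte markers turned to 0.26 and 0.65 by these settings, 0.47 at 50 CPM and 0.53 without experiment 52 and control 65.

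Of 146 named genes, 122 were past the fold, and 10 of these changed sign under at least 1 setting. Without experiment 49 and 52 log2 ratios were -0.55 for Slc16a1, -0.58 for Jun, -1.32 for Mt2, -2.53 for Gad2, -5.47 for Gad1, -2.93 for Slc17a7, -4.16 for Agt and -0.78 for Mbp. Without the highest library they were -0.12 for Jun, -0.73 for Mt2, -0.47 for Slc17a7 and 0.35 for Cnp, and Cnp was 0.26 on the log2 scale. Without experiment 52 Jun was -0.96 and Mt2 -1.71, and without experiment 52 and control 65 they were -0.86 and -1.53. Slc17a7 was -1.49 without experiment 49 and Calb2 -0.46 without experiment 56. With single experiment libraries left out, the highest log2 ratios were 2.46 for Calb2, 1.48 for Jun, 3.35 for Mt2 and 1.56 for Slc17a7. For these changes, the cause was not tested. A further 219 gene values, in 58 of the 146 named genes, moved beyond the spread between experiment libraries. The other 480 list medians and 2098 gene values stayed within that spread.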
